A study of Penicillium oxalicum with 9 samples.

Results

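The genes described here encode the mitochondrial respiratory chain and ATP synthase of the filamentous fungus Penicillium oxalicum, together with factors that assemble them. They were chosen by words in the descriptions that the authors deposited beside each gene, such as NADH dehydrogenase, succinate dehydrogenase, cytochrome c oxidase and ATP synthase. The alternative oxidase PDE_08849 and the vacuolar (V-type) proton pump were left out. This gave 88 of the 9907 genes in the table. Levels are FPKM, that is, mapped fragments scaled by transcript length and by the library's mapped total, as the authors computed them. The 3 strains compared, with 3 libraries each, were the wild type 114-2, a clrB deletion (ΔclrB) and an rcoA deletion (ΔrcoA). Every strain was grown from conidia for 22 h at 30 °C with 2% glucose, and its mycelia were then moved for 24 h to Mandel's medium holding 1% wheat bran and 1% cellulose. ClrB is known as an activator of cellulase transcription, and RcoA as a Tup1-type corepressor. Nothing in the labels tells whether libraries of the same strain were grown separately, or whether a deletion rests on a single transformant, so a p-value here measures the spread between libraries, which may be technical.

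The respiratory chain passes electrons from NADH and succinate to oxygen across the inner mitochondrial membrane. Complex I oxidises NADH and complex II oxidises succinate, both hand electrons to ubiquinone, complex III passes them to cytochrome c, and complex IV reduces oxygen. Complexes I, III and IV pump protons, and ATP synthase uses the proton gradient to make ATP. Fungi also carry single-protein alternative NADH dehydrogenases, which feed ubiquinone without pumping protons.

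By their descriptions the 88 genes fell into complex I with 22, alternative NADH dehydrogenases with 4, complex II with 6, complex III with 7, complex IV with 7, ATP synthase with 15 and assembly factors with 25. A further 2 combined a complex I description with one of an unrelated enzyme. Among the assembly factors PDE_05261, PDE_07494, PDE_08337 and PDE_09546 also carry a second, unrelated description. A description is an automated label and not a tested function, and 16 of the genes share theirs with another of the 88. Of the 26 genes with a deposited gene ontology term for a cellular component, 12 had a matching one (46.2%). A match named mitochondria, the respiratory chain or proton-transporting ATP synthase. The same share was 4.78% over the 1401 genes of the whole table that had a cellular component term. ATP synthase was also among the words by which the genes were chosen, so the higher share is in part built in. None of the 88 was described as a mitochondrially encoded core subunit, such as cytochrome b of complex III or subunits 1 to 3 of complex IV, so what follows concerns nuclear genes by description.

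The clrB label held, since PDE_05999, described as ClrB, stood at 185 ± 19.3 FPKM (SD, n = 3) in wild type and at 0.11, 0.11 and 0.08 in ΔclrB. The locus of rcoA is not named in the labels. PDE_01024, described as TUP1, stood at 67.8 ± 2.64 in wild type and at 2.08, 2.67 and 3.38 in ΔrcoA. The summed FPKM of a library ran from 776855 to 820648. Replicate 2 of ΔclrB stood apart from its group, with correlations of log2(FPKM + 1) across genes of 0.946 and 0.957 to the other 2 libraries, which had 0.991 with each other. The conidiation genes, which mark spore-forming cells, summed to 168 to 298.8 FPKM in the wild type libraries, 325.4 to 725.2 in ΔclrB and 257.1 to 335.2 in ΔrcoA. Most of this sum came from 1 gene, FlbD (PDE_03008), at 178.8 ± 60.8 FPKM in wild type and 272.2 ± 42.9 in ΔrcoA. In bulk mycelia fewer cells of a type and less RNA per cell cannot be told apart.

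Genes were tested on log2(FPKM + 1) with limma across all 9097 genes that had a mean of at least 1 FPKM over the 9 libraries, and called at a Benjamini-Hochberg adjusted p under 0.05 (two-sided). Of the 88 genes, 86 passed this level. Both comparisons with wild type use the same wild type libraries, so each deletion's values are given side by side and their likeness is not tested.

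In ΔrcoA the respiratory genes stood higher than in wild type. Of the 86 tested, 54 rose (62.8%), 1 fell and 31 were not called, whereas 30.4% of all genes tested rose and 34.1% fell. Their median log2 change was 0.47, against -0.04 for all genes tested, and single changes ran from -0.83 to 1.52. All 3 rcoA libraries lay above all 3 wild type libraries for 59 of the 86 genes (68.6%) and below them for 1, against 34.8% and 39.1% of all genes tested. Among the 54 genes that rose, 14 had a log2 change of at least 1. Over all genes tested 1101 of the 2762 that rose did so, which is a larger share. The summed FPKM of the 88 genes was 8956.6 ± 945.8 in wild type and 11790.5 ± 340.6 in ΔrcoA, a ratio of 1.32.

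In ΔclrB few of these genes passed the test. Of the 86, 12 rose (14.0%), 2 fell and 72 were not called, against 13.5% of all genes tested that rose and 8.32% that fell, so the share that rose was near the background. Their median log2 change of 0.10 was also close to the 0.08 of all genes tested. The clrB libraries lay above all wild type libraries for 23 genes and below them for 4, against 24.3% and 14.6% of all genes tested. Without replicate 2 of ΔclrB 21 rose and 2 fell, and without replicate 3 only 1 rose and 1 fell. Under 3 other scalings 8 or 9 rose and 4 fell. Compared directly, 47 of the 86 genes were lower in ΔclrB than in ΔrcoA and 1 was higher, against 24.9% and 35.2% of all genes tested (60.1% either way). All clrB libraries lay below all rcoA libraries for 56 of the 86 and above them for 1, against 27.0% and 38.5%. In total 30 genes were called in no comparison.

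**Figure D1:**
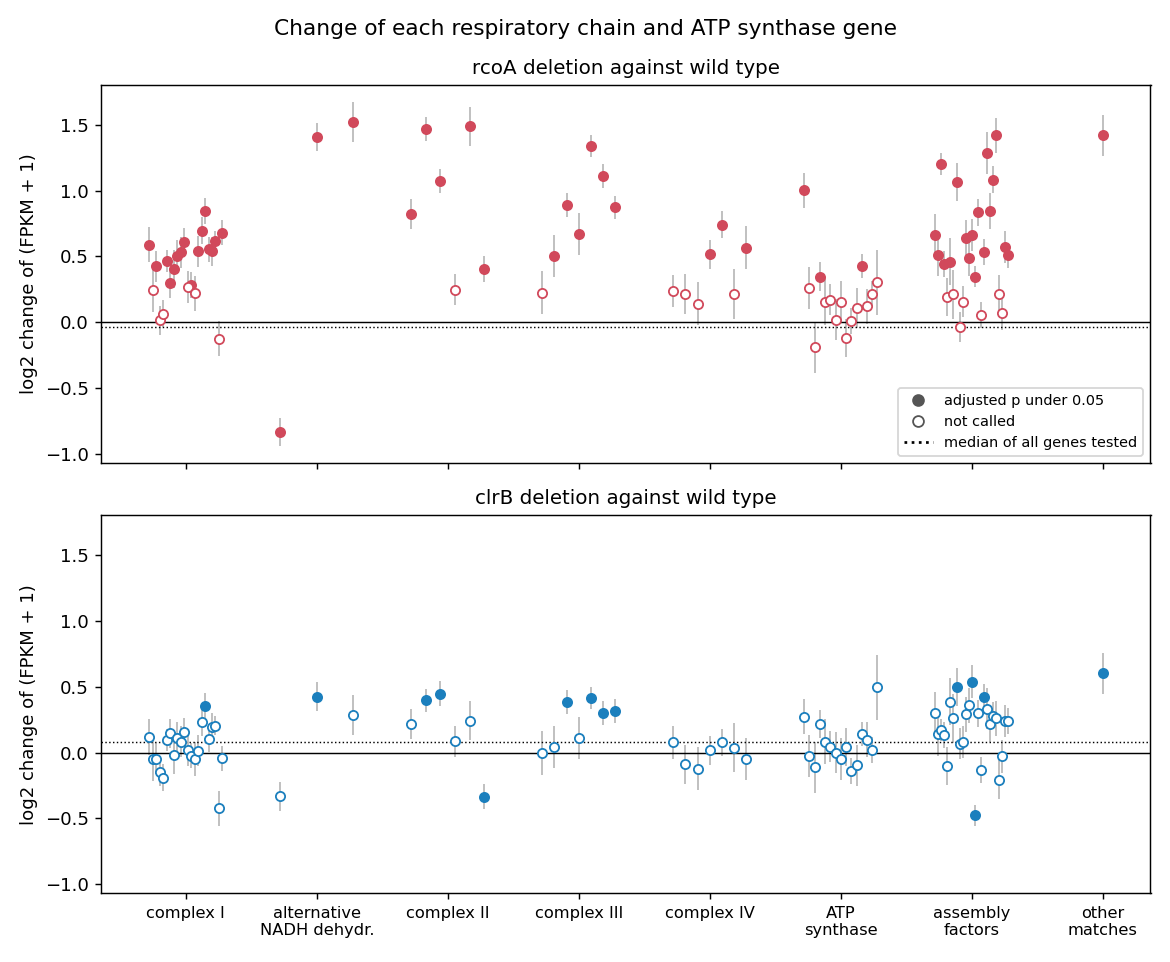
Log2 change of (FPKM + 1) of each of the 86 genes tested, by class, for the rcoA deletion (top) and the clrB deletion (bottom) against wild type, with 3 libraries per strain. Points are limma estimates, bars their standard errors, filled points have an adjusted p under 0.05, and the dotted line is the median of all genes tested, at -0.04 in the top panel and 0.08 in the bottom panel.

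Class medians differed in size. Complexes II and III had the higher medians among the 5 complexes in ΔrcoA, at 0.95 and 0.87 on the log2 scale, complex I stood at 0.49, and complex IV and ATP synthase stood at 0.24 and 0.15. Rises were called for 5 of 6 genes of complex II, 6 of 7 of complex III, 16 of 22 of complex I, 3 of 7 of complex IV and 3 of 15 of ATP synthase. Set against the 30.4% of all genes tested that rose, the shares were 83.3%, 85.7%, 72.7%, 42.9% and 20%. Only for ATP synthase did the share of called rises, 3 of 15, not exceed the background. Its median of 0.15 still lay above the -0.04 of all genes tested, and 13 of its 15 changes were above 0. None of its genes fell, against 34.1% of all genes tested. As ratios of summed FPKM, ΔrcoA stood at 1.66 times wild type for complex II, 1.76 for complex III, 1.32 for complex I, 1.25 for complex IV and 1.13 for ATP synthase. The differences between classes were not tested.

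The library medians show which libraries carried these differences. Taken over the 86 genes and relative to the wild type mean, the median log2 level was 0.12, -0.10 and -0.02 in wild type replicates 1, 2 and 3, and 0.23, -0.02 and 0.08 in those of ΔclrB. In ΔrcoA it was 0.42, 0.42 and 0.54. The rcoA libraries thus all lay above the other 6, while the clrB and wild type libraries overlapped. Within wild type, replicate 1 was the highest library for 64 of the 86 genes and replicate 2 the lowest for 58, whereas over all genes tested these shares were 37.8% and 30.3%. In ΔclrB replicate 1 was highest for 72 and replicate 2 lowest for 66, against 42.9% and 48.7% of all genes tested. In ΔrcoA the counts were nearer to the background, with replicate 3 highest for 54 and replicate 1 lowest for 47, against 49.3% and 48.8%. In wild type and ΔclrB many respiratory genes thus shared their highest and lowest library, and the part of this in the comparisons was not tested.

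**Figure D2:**
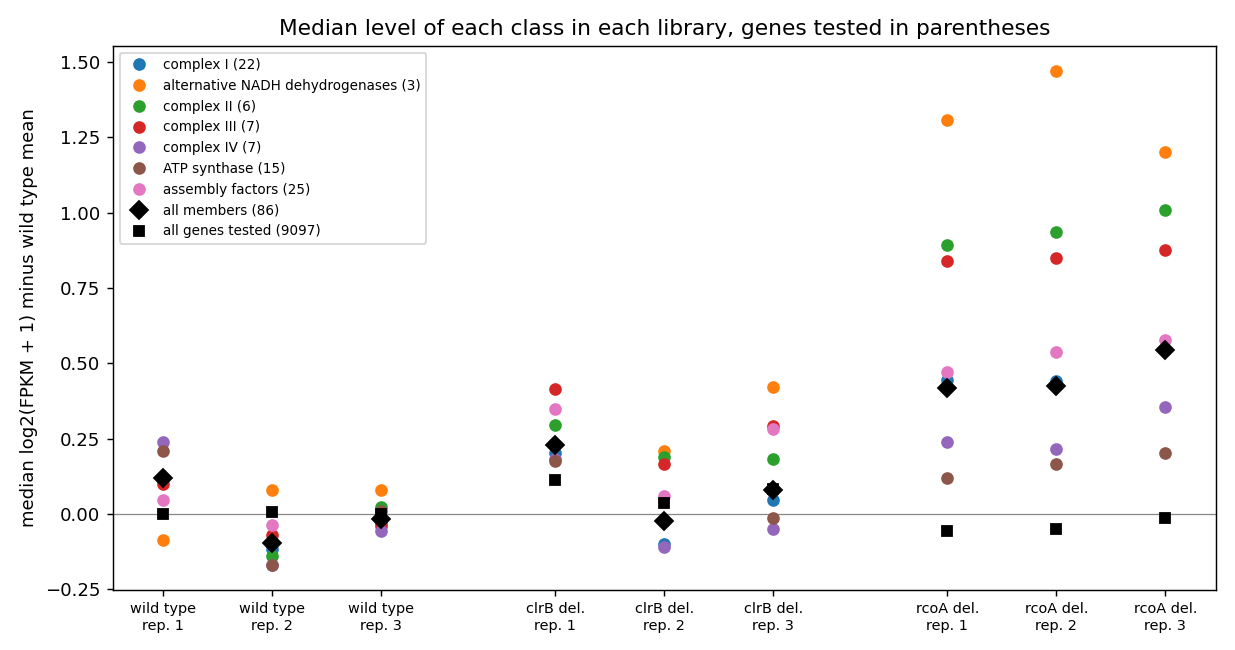
Median over the genes of each class of log2(FPKM + 1) minus the gene's wild type mean, for each of the 9 libraries, with the number of genes tested in parentheses. The black diamonds, for the 86 genes, lie between 0.42 and 0.54 in the rcoA deletion and between -0.10 and 0.23 in the other 6 libraries, while the squares, for all 9097 genes tested, stay between -0.06 and 0.11.

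Complex I is the large NADH dehydrogenase at the entry of the chain. Its most changed gene was PDE_08412, the flavoprotein NDUFV1 that binds NADH. It read 109.8, 91.1 and 114 FPKM in wild type, 138, 132 and 132 in ΔclrB and 195, 188 and 183 in ΔrcoA. No values overlapped between the 3 strains, with wild type lowest and ΔrcoA highest. The rise was 1.80-fold in ΔrcoA (log2 change 0.85, SE 0.10, limma adjusted p = 8.32e-05) and 1.28-fold in ΔclrB (0.35, SE 0.10, adjusted p = 0.0363). The clrB call was lost under 10 of 18 alternative settings, among them each of the 3 other scalings.

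Other core subunits of complex I rose in ΔrcoA too. These were NDUFV2 (PDE_04335, 1.54-fold), the iron-sulfur subunit PDE_09116 (1.55-fold), NDUFS3 (PDE_08809, 1.47-fold), NDUFS7 (PDE_09088, 1.46-fold) and NDUFS8 (PDE_02664, 1.38-fold). They belong to the part of the complex whose flavin and iron-sulfur centres pass electrons from NADH to ubiquinone. In ΔclrB none of these 5 was called, at 1.06-fold to 1.16-fold.

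Accessory subunits of complex I were split. NDUFS6 (PDE_09943) rose 1.61-fold in ΔrcoA, and the 8 other accessory genes that rose included the acyl carrier protein NDUFAB1 (PDE_02665, 1.23-fold). The 6 that were not called included the most abundant gene of the complex, PDE_06935, described as NDUFS4. It read 264, 196 and 244 FPKM in wild type, 256, 213 and 209 in ΔclrB and 267, 275 and 272 in ΔrcoA. The rcoA libraries lay just above the wild type ones, and the difference was 1.16-fold (adjusted p = 0.169). PDE_05846, described as NDUFB8 of the membrane arm, read 171, 129 and 139 in wild type, 165, 138 and 139 in ΔclrB and 179, 173 and 174 in ΔrcoA. Again the rcoA libraries lay above wild type without passing the test (1.20-fold, adjusted p = 0.0807), and the call was made under trimmed mean factors, with the replicate block and without wild type replicate 1.

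One accessory gene of complex I leaned the other way. PDE_09691, described as NDUFB3, read 118, 90.7 and 99.3 FPKM in wild type, 88.02, 72.4 and 68.7 in ΔclrB and 85.6, 93.0 and 103 in ΔrcoA. All clrB libraries lay below all wild type libraries, at 0.743 times the wild type mean, but the test was missed (log2 change -0.42, SE 0.13, adjusted p = 0.0518). It was the only gene of complex I whose log2 change in ΔrcoA was below 0, at -0.13 (adjusted p = 0.431).

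The alternative NADH dehydrogenases moved in opposite directions. PDE_06939, described by the KEGG entry K03885 for a single-subunit NADH dehydrogenase, read 28.9, 36.1 and 35.6 FPKM in wild type, 39.3, 38.8 and 45.1 in ΔclrB and 113, 105 and 78.2 in ΔrcoA. The rcoA libraries lay far above the rest, and the 2.95-fold rise had the largest log2 change of the 86 genes (1.52, SE 0.15, adjusted p = 2.75e-05). The clrB libraries lay above wild type but were not called (1.22-fold, adjusted p = 0.195).

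PDE_00751, described by K17871 as an NADH dehydrogenase of this kind, read 12.1, 13.7 and 13.0 FPKM in wild type, 19.6, 15.2 and 18.3 in ΔclrB and 33.4, 37.5 and 36.9 in ΔrcoA. The strains did not overlap. It rose 2.78-fold in ΔrcoA (adjusted p = 6.28e-06) and 1.37-fold in ΔclrB (adjusted p = 0.0263), the latter lost under 7 of 18 alternatives.

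PDE_00323, which also carries K03885, was the single respiratory gene that fell in ΔrcoA. It read 18.6, 19.7 and 20.9 FPKM in wild type, 16.1, 14.4 and 15.8 in ΔclrB and 12.1, 10.5 and 9.37 in ΔrcoA. The strains again did not overlap, but in the reverse order, with wild type highest. It was 1.85-fold lower in ΔrcoA (log2 change -0.83, SE 0.11, adjusted p = 0.000138). The clrB deletion stood at 0.783 times wild type and was not called (adjusted p = 0.0544). It was also the 1 gene that was higher in ΔclrB than in ΔrcoA (log2 difference 0.50, adjusted p = 0.00334).

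The fourth gene, PDE_01209, carries both KEGG entries and did not reach the tested level. It read 0.13, 0.13 and 0.08 FPKM in wild type, 0.22, 0.51 and 0.21 in ΔclrB and 1.15, 1.24 and 1.23 in ΔrcoA. The rcoA libraries were the highest, at values too low for a fold to be given. The alternative oxidase PDE_08849, which takes electrons from ubiquinone past complexes III and IV and is not among the 88, stood at 5.46 ± 2.13 FPKM in wild type, 54.1 ± 17.2 in ΔclrB and 1003.2 ± 304 in ΔrcoA.

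Complex II, succinate dehydrogenase, also belongs to the citrate cycle. Its flavoprotein subunit, which holds FAD and oxidises succinate, was described for 2 genes. PDE_01648 read 103, 89.6 and 102 FPKM in wild type, 125, 138 and 125 in ΔclrB and 269, 276 and 274 in ΔrcoA. The 3 strains formed separate steps. The rise was 2.78-fold in ΔrcoA (log2 change 1.47, SE 0.09, adjusted p = 1.49e-06) and 1.32-fold in ΔclrB (adjusted p = 0.0169), the latter lost without wild type replicate 2 and without clrB replicate 3.

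The second flavoprotein gene, PDE_09834, read 47.7, 53.8 and 43.6 FPKM in wild type, 38.8, 37.8 and 37.4 in ΔclrB and 68.4, 63.9 and 60.4 in ΔrcoA. Here the clrB libraries lay below wild type and the rcoA libraries above it, with no overlap. It was 1.27-fold lower in ΔclrB (log2 change -0.34, SE 0.10, adjusted p = 0.0374) and 1.33-fold higher in ΔrcoA (adjusted p = 0.00499). The direct comparison of both deletions gave a log2 difference of -0.74 (SE 0.10, adjusted p = 0.00017). The clrB call was lost under 6 of 18 alternatives.

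The share of PDE_01648 in the summed FPKM of the flavoprotein pair was 66.9% ± 3.99 in wild type, 77.3% ± 1.08 in ΔclrB and 81.0% ± 1.13 in ΔrcoA (SD, n = 3). In single libraries it ran from 62.5% to 70.1% in wild type, from 76.3% to 78.5% in ΔclrB and from 79.7% to 81.9% in ΔrcoA. The shares thus did not overlap between strains. Whether the authors' counting split or shared reads between such like-named genes is not known, and their separate values carry that uncertainty.

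The iron-sulfur subunit PDE_07264, which carries electrons from the flavin to ubiquinone, read 193, 166 and 178 FPKM in wild type, 255, 244 and 235 in ΔclrB and 374, 368 and 388 in ΔrcoA. The strains did not overlap. It rose 2.11-fold in ΔrcoA (log2 change 1.07, SE 0.09, adjusted p = 1.17e-05) and 1.37-fold in ΔclrB (0.45, SE 0.09, adjusted p = 0.0118). Both calls were kept under all 18 alternatives.

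The membrane part of complex II holds the cytochrome b subunit, again described for 2 genes. PDE_09195 was the most abundant respiratory gene by mean FPKM over the 9 libraries, and read 573, 463 and 509.7 FPKM in wild type, 574, 554 and 509 in ΔclrB and 571, 612 and 647 in ΔrcoA. The groups overlapped and it was not called (1.18-fold in ΔrcoA, adjusted p = 0.0932), although it was without wild type replicate 1. Its partner PDE_09828 read 53.8, 39.5 and 56.4 in wild type, 67.4, 51.7 and 57.6 in ΔclrB and 139, 133 and 149 in ΔrcoA. Wild type and clrB libraries overlapped, and every rcoA library lay above both. The rise in ΔrcoA was 2.82-fold (log2 change 1.49, SE 0.15, adjusted p = 2.76e-05), and ΔclrB was not called (1.18-fold, adjusted p = 0.261). In the summed FPKM of this pair the share of PDE_09828 was 8.80% ± 1.07 in wild type, 9.74% ± 1.06 in ΔclrB and 18.7% ± 0.847 in ΔrcoA. The membrane anchor PDE_00477 rose 1.76-fold in ΔrcoA (adjusted p = 0.000226).

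**Figure D3:**
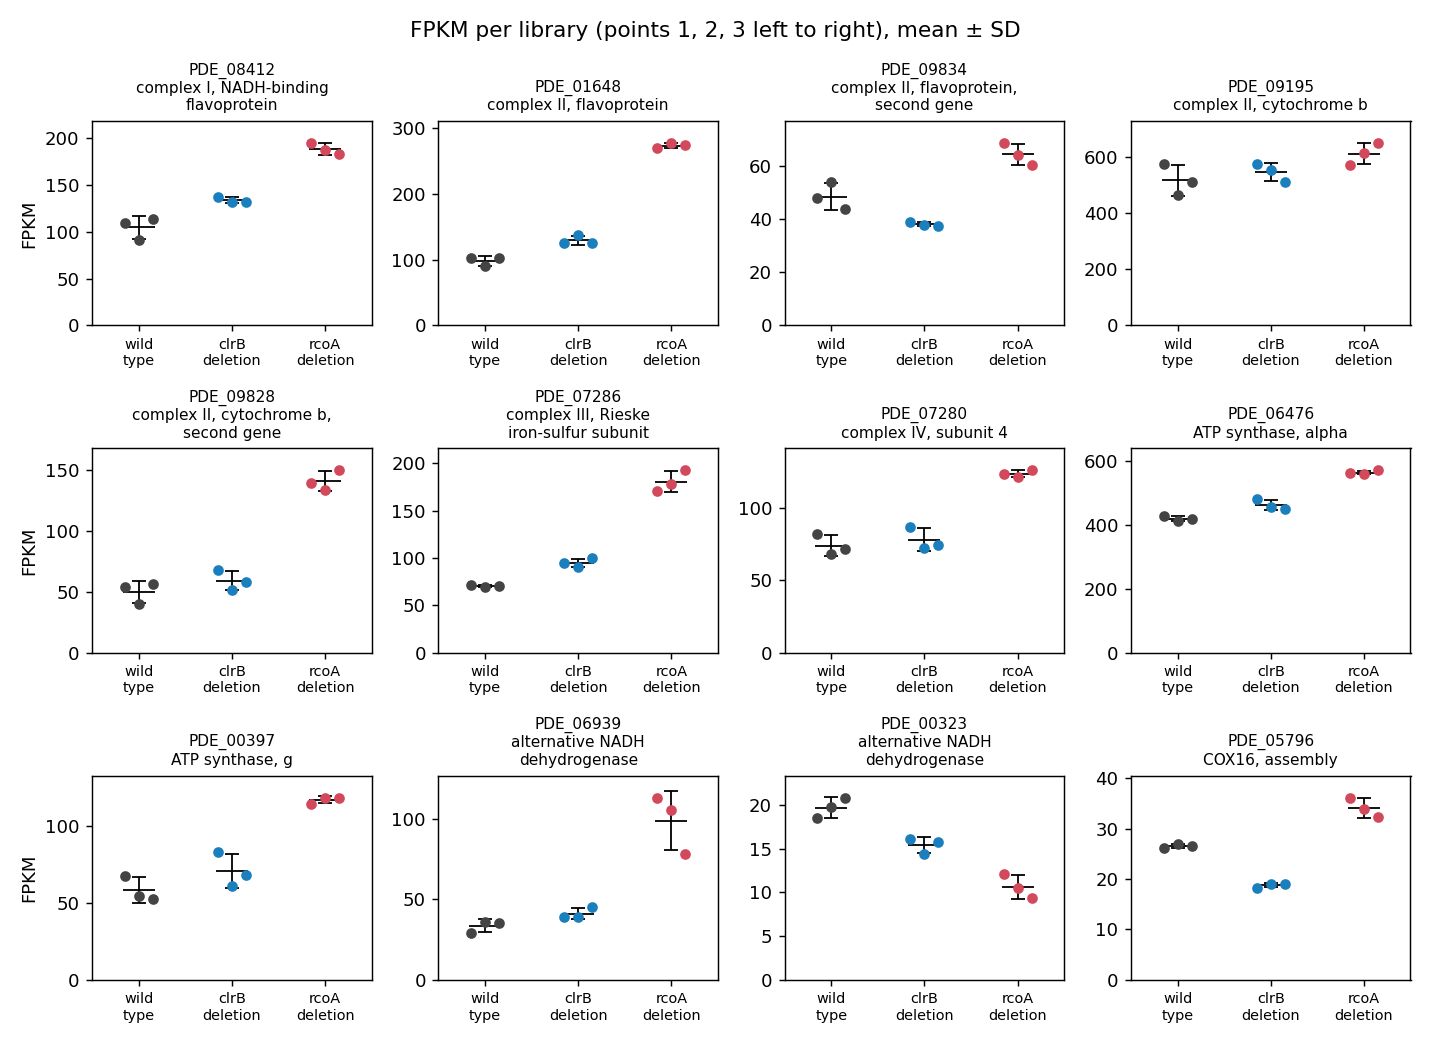
FPKM in each library (points, replicates 1 to 3 from left to right) with the mean and SD of each strain, n = 3, for 12 genes, each panel with its own linear axis from 0. The flavoprotein gene PDE_01648 steps up from wild type to the clrB and the rcoA deletion, PDE_09834 and PDE_05796 lie lowest in the clrB deletion, and PDE_00323 lies lowest in the rcoA deletion.

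Complex III, the cytochrome bc1 complex, had 6 of its 7 genes higher in ΔrcoA (85.7%, against 30.4% of all genes tested). In ΔclrB 4 genes of the complex were higher (57.1%, against 13.5%), each call being lost under at least 1 of the 18 alternatives. Its Rieske iron-sulfur subunit PDE_07286, which takes an electron from ubiquinol, read 71.5, 69.4 and 70.8 FPKM in wild type, 94.3, 90.2 and 99.6 in ΔclrB and 171, 178 and 193 in ΔrcoA. The libraries within wild type were close together and no strains overlapped. The rise was 2.56-fold in ΔrcoA (log2 change 1.34, SE 0.08, adjusted p = 1.64e-06) and 1.34-fold in ΔclrB (0.42, SE 0.08, adjusted p = 0.0106), where only leaving out clrB replicate 3 lost the call.

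Cytochrome c1 (PDE_04530), which hands the electron to cytochrome c, read 108, 96.5 and 97.9 FPKM in wild type, 143, 124 and 129 in ΔclrB and 181, 187 and 195 in ΔrcoA. The same order without overlap was seen. It rose 1.86-fold in ΔrcoA (adjusted p = 3.50e-05) and 1.31-fold in ΔclrB (adjusted p = 0.0201), the latter lost under 5 of 18 alternatives. Core subunit 2 (PDE_09131) and subunit 6 (PDE_08471) rose in ΔrcoA, 1.84-fold and 2.18-fold, and were called in ΔclrB at 1.25-fold and 1.24-fold, calls lost under 11 and 14 of 18 alternatives. Subunits 7 (PDE_06136) and 9 (PDE_03870) rose 1.59-fold and 1.42-fold in ΔrcoA. Subunit 8 (PDE_00191) was not called in either deletion, at 1.16-fold in ΔrcoA (adjusted p = 0.257).

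Complex IV, cytochrome c oxidase, changed in fewer of its 7 genes. PDE_07280, described as subunit 4, read 81.5, 67.7 and 71.6 FPKM in wild type, 86.8, 72.1 and 74.2 in ΔclrB and 123, 121 and 126 in ΔrcoA. Wild type and clrB libraries overlapped, while the rcoA libraries lay above all of them. The rise in ΔrcoA was 1.68-fold (log2 change 0.74, SE 0.10, adjusted p = 0.000225), and ΔclrB was not called (1.06-fold, adjusted p = 0.625). Subunits 5a (PDE_09876) and 5b (PDE_05248) rose 1.47-fold and 1.43-fold in ΔrcoA.

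The other 4 genes of complex IV were not called, at 1.09-fold to 1.17-fold in ΔrcoA, and they include the most abundant ones. PDE_03638, described as subunit 7c, read 271, 213 and 199 FPKM in wild type, 262, 185 and 184 in ΔclrB and 249, 248 and 249.8 in ΔrcoA. In wild type and in ΔclrB replicate 1 was the high library, and the groups overlapped. PDE_01610, described as subunit 6a, read 191, 134 and 165 in wild type, 178, 169 and 165 in ΔclrB and 191, 187 and 195 in ΔrcoA. Its groups overlapped as well, by the value of wild type replicate 1 (1.17-fold in ΔrcoA, adjusted p = 0.123), and without that library it passed the test. No gene of complex IV was called in ΔclrB, where log2 changes ran from -0.12 to 0.08.

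ATP synthase had the highest summed FPKM of the classes, at 3887.6 ± 489.0 in wild type, 4089.8 ± 399.7 in ΔclrB and 4385.3 ± 116.3 in ΔrcoA. Levels of different genes are compared per length here, as FPKM scales them, and this is uncertain for tag libraries. Of its 15 genes, 3 rose in ΔrcoA, 12 were not called and none was called in ΔclrB. The alpha subunit PDE_06476 of the catalytic head read 429, 411 and 419.5 FPKM in wild type, 480.3, 457 and 449 in ΔclrB and 561, 560.0 and 571 in ΔrcoA. The strains did not overlap, with tight rcoA values on top. The 1.34-fold rise (log2 change 0.43, SE 0.09, adjusted p = 0.00258) was lost under quantile normalization, and ΔclrB was not called (1.10-fold, adjusted p = 0.285).

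The largest rise in ATP synthase was that of subunit g (PDE_00397), a small membrane subunit linked in yeast to dimers of the enzyme. It read 68.0, 54.8 and 52.6 FPKM in wild type, 83.4, 61.2 and 68.3 in ΔclrB and 115, 119 and 119 in ΔrcoA. Only the rcoA libraries stood clear of the others. It rose 2.01-fold (log2 change 1.00, SE 0.13, adjusted p = 0.00017). The gamma subunit PDE_02994 of the rotating stalk rose 1.27-fold (adjusted p = 0.0181).

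The other ATP synthase subunits gave no call. The beta subunit PDE_07279, which carries the catalytic sites, stood at 412 ± 33.9 FPKM in wild type and 478 ± 9.55 in ΔrcoA (1.16-fold, adjusted p = 0.0867). Subunit d (PDE_03510) of the peripheral stalk had the highest mean of the 15 and read 614, 409 and 530.2 in wild type, 563, 482 and 489 in ΔclrB and 485, 511 and 560.2 in ΔrcoA. The wild type values spread more widely than those of either deletion, and its fold in ΔrcoA was 1.00 (adjusted p = 0.920). Subunit c (PDE_07836), which forms the rotor ring, read 261, 274 and 279 in wild type, 525, 239 and 449 in ΔclrB and 318, 349 and 337 in ΔrcoA. Replicate 2 of ΔclrB lay below wild type while the other 2 lay far above it, and the gene was not called (log2 change 0.50, adjusted p = 0.170). Without that library its log2 change was 0.84 and it passed the test.

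**Figure D4:**
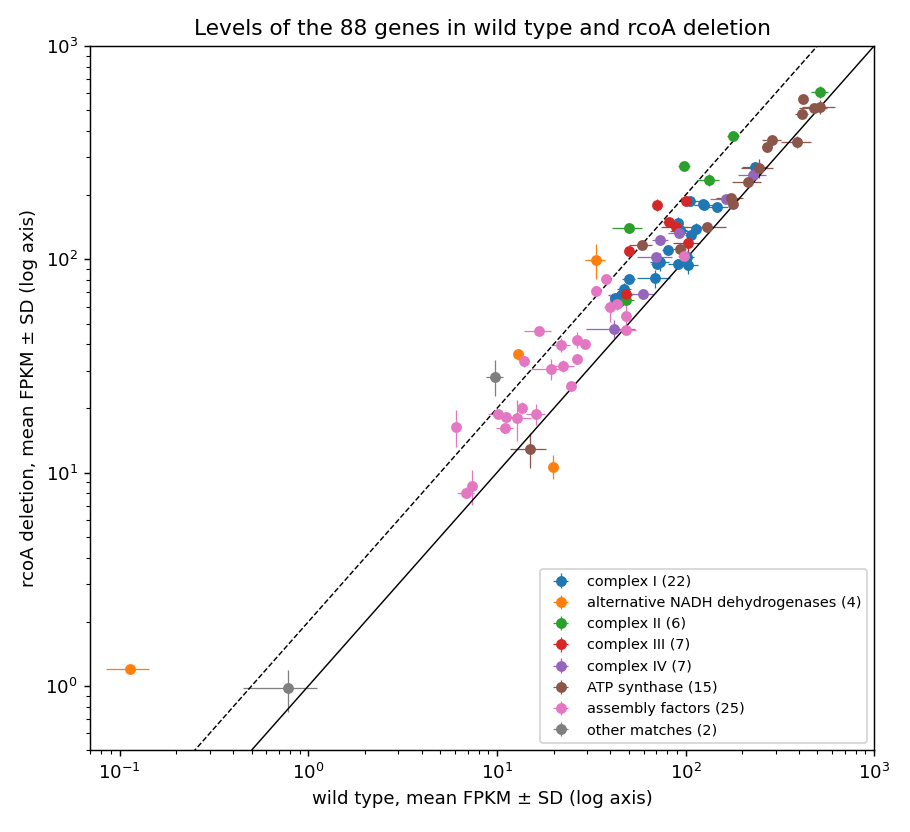
Mean FPKM of each of the 88 genes in wild type (horizontal axis) and in the rcoA deletion (vertical axis), both on log axes with SD over 3 libraries, coloured by class. The solid line marks equal levels and the dashed line a doubling; several genes of complexes II and III lie near the dashed line, most ATP synthase genes lie near the solid line, and PDE_00323, an alternative NADH dehydrogenase, lies below it.

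The assembly factors rose in ΔrcoA for 18 of 25 genes (72%, against 30.4% of all genes tested), with a median log2 change of 0.51. In ΔclrB 3 rose (12%) and 1 fell (4%), against 13.5% and 8.32% of all genes tested, so neither share exceeded the background. SDHAF2 (PDE_08337), which helps attach FAD to the flavoprotein of complex II, read 38.1, 36.8 and 38.3 FPKM in wild type, 48.9, 39.2 and 51.0 in ΔclrB and 81.2, 80.8 and 81.4 in ΔrcoA. The rcoA libraries were nearly equal and far above the rest. The rise was 2.15-fold (log2 change 1.09, SE 0.10, adjusted p = 2.13e-05), and ΔclrB was not called (1.23-fold, adjusted p = 0.0803), although without clrB replicate 2 it was.

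COX15 takes part in making haem A for complex IV and was described for 2 genes. PDE_08885 read 19.7, 14.5 and 15.8 FPKM in wild type, 22.9, 17.3 and 20.1 in ΔclrB and 45.6, 44.8 and 47.3 in ΔrcoA. Wild type and clrB libraries overlapped and the rcoA libraries lay above both. It rose 2.76-fold (log2 change 1.42, SE 0.13, adjusted p = 1.85e-05), the second COX15 gene PDE_09546 rose 1.43-fold (adjusted p = 0.00138), and the share of PDE_08885 in their summed FPKM was 27.8% ± 4.06 in wild type and 42.6% ± 1.34 in ΔrcoA.

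Copper delivery to complex IV depends on COX17 and COX11. COX17 (PDE_01659) rose 2.40-fold in ΔrcoA, from 13.9 ± 0.104 to 33.2 ± 2.02 FPKM (adjusted p = 3.46e-06). The COX11 gene PDE_05416 read 10.9, 10.2 and 12.3 FPKM in wild type, 18.9, 14.0 and 17.3 in ΔclrB and 17.5, 18.9 and 18.1 in ΔrcoA. Both deletions lay above wild type and overlapped each other. It rose 1.502-fold in ΔclrB (adjusted p = 0.0168), lost under 3 of 18 alternatives, and 1.63-fold in ΔrcoA (adjusted p = 0.0012). The other COX11 gene PDE_03223 rose 1.37-fold in ΔrcoA (adjusted p = 0.00352), and stood at 1.11-fold in ΔclrB (adjusted p = 0.352).

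COX16 (PDE_05796), also an assembly factor of complex IV, was the other gene that fell in ΔclrB. It read 26.2, 27.0 and 26.5 FPKM in wild type, 18.2, 19.0 and 19.1 in ΔclrB and 36.1, 33.8 and 32.3 in ΔrcoA. The libraries of each strain were close together and no strains overlapped. It was 1.41-fold lower in ΔclrB (log2 change -0.48, SE 0.08, adjusted p = 0.00466) and 1.28-fold higher in ΔrcoA (0.35, SE 0.08, adjusted p = 0.00363). The direct comparison gave a log2 difference of -0.83 (adjusted p = 2.32e-05), and all 3 calls held under each of the 18 alternatives.

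The factors for ATP synthase rose although most of its subunits were not called. ATPAF1 (PDE_04250), a chaperone of the beta subunit in yeast, read 33.3, 34.3 and 33.0 FPKM in wild type, 57.05, 37.0 and 51.6 in ΔclrB and 69.7, 68.4 and 75.8 in ΔrcoA. Replicate 2 of ΔclrB lay only just above wild type. The rise was 2.12-fold in ΔrcoA (adjusted p = 0.000184) and 1.45-fold in ΔclrB (adjusted p = 0.0384), the latter lost under 12 of 18 alternatives. ATPAF2 (PDE_05837), which serves the alpha subunit in yeast, rose 1.81-fold in ΔrcoA (adjusted p = 0.000104).

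Of the factors for complex I, NDUFAF6 (PDE_07420) rose in both deletions, 1.48-fold in ΔrcoA and 1.37-fold in ΔclrB, the latter lost under 6 of 18 alternatives. NDUFAF1 (PDE_01607), NDUFAF3 (PDE_05261) and NDUFAF5 (PDE_05146) rose in ΔrcoA by 1.46-fold, 1.41-fold and 1.59-fold. The most abundant factor was PDE_09338, described as NDUFAF2, which read 106, 91.8 and 97.0 FPKM in wild type, 113, 83.0 and 94.8 in ΔclrB and 93.4, 104 and 112 in ΔrcoA. Its groups overlapped in full and it was not called. The other gene described as NDUFAF2, PDE_08330, rose 1.87-fold in ΔrcoA (adjusted p = 0.00052).

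PDE_08810 is described both as NDUFS3 and as a type III polyketide synthase. It read 9.24, 9.21 and 10.9 FPKM in wild type, 16.9, 13.1 and 16.3 in ΔclrB and 22.5, 28.8 and 33.4 in ΔrcoA. The strains did not overlap, and it rose 2.88-fold in ΔrcoA (adjusted p = 4.90e-05) and 1.58-fold in ΔclrB (adjusted p = 0.0264), the latter lost under 4 of 18 alternatives.

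Other genes around the chain were counted by lists of words in their descriptions, the 88 left out. Over all genes tested 30.4% rose and 34.1% fell in ΔrcoA, and 13.5% rose and 8.32% fell in ΔclrB. Of 28 citrate cycle genes tested, 19 rose (67.9%) and 5 fell (17.9%) in ΔrcoA, and 6 rose (21.4%) and 1 fell (3.57%) in ΔclrB. Of 45 genes for mitochondrial carriers and porin, 24 rose (53.3%) and 7 fell (15.6%) in ΔrcoA, and 10 rose (22.2%) and 2 fell (4.44%) in ΔclrB. Of 36 genes for mitochondrial import, 22 rose (61.1%) and 3 fell (8.33%) in ΔrcoA, and 11 rose (30.6%) and none fell in ΔclrB. Median log2 changes in ΔrcoA were 0.46, 0.50 and 0.43 for these lists, beside the 0.47 of the respiratory genes and the -0.04 of all genes tested. Cytochrome c, ubiquinone synthesis and electron transfer flavoprotein had 6 of 17 genes higher (35.3%) and none lower in ΔrcoA, with a median of 0.11, and 5 higher (29.4%) and 2 lower (11.8%) in ΔclrB. Of 7 mitochondrial ribosomal protein genes, 5 rose (71.4%) and 2 fell (28.6%) in ΔrcoA and none was called in ΔclrB.

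The vacuolar proton pump, a relative of ATP synthase outside mitochondria, had 4 of 18 genes higher and 4 lower in ΔrcoA (22.2% each, below the shares of all genes tested), with a median log2 change of 0.01, and none called in ΔclrB, where the median was 0.02. The lists for carriers and mitochondrial ribosomal proteins shared 1 gene, and those for carriers and the vacuolar pump shared 2, PDE_06583 and PDE_04003. Both fell in ΔrcoA (log2 changes -2.08 and -0.88). They are thus 2 of the 4 falls counted for the vacuolar pump and are also among those counted for the carriers.

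A few partners of the chain were picked after their values were seen. They do not stand for the lists they come from. The carrier and porin list also holds PDE_02645, which fell in both deletions. It stood at 86.7 ± 8.59 FPKM in wild type, 52.7 ± 3.38 in ΔclrB and 51.2 ± 5.01 in ΔrcoA (limma adjusted p = 0.00341 and 0.000268 against wild type). Cytochrome c (PDE_08701), which shuttles electrons from complex III to complex IV, stood at 70.7 ± 3.64 FPKM in wild type, 120.3 ± 0.993 in ΔclrB and 400.8 ± 58.4 in ΔrcoA (adjusted p = 0.00301 and 2.69e-07 against wild type). The ADP/ATP carrier PDE_02785, which exports ATP from mitochondria, stood at 322.7 ± 28.1, 531 ± 108.7 and 1027.5 ± 87.2 (adjusted p = 0.0194 and 2.62e-05). The phosphate carrier PDE_00444, which supplies phosphate to ATP synthase, stood at 104.7 ± 4.41, 172.5 ± 4.10 and 481.5 ± 54.4 (adjusted p = 0.00266 and 3.21e-07). A second phosphate carrier gene, PDE_01930, was not called against wild type, at 249 ± 14.6, 228.6 ± 37.7 and 288.7 ± 8.04.

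Markers of spore-forming cells were examined beside these results. Of the 5 conidiation genes 4 were tested. In ΔclrB 2 rose (50%, against 13.5% of all genes tested), BrlA (PDE_00087) and FlbD (PDE_03008). BrlA read 18.2, 27.9 and 28.5 FPKM in wild type and 149, 33.4 and 121 in ΔclrB. In ΔrcoA 2 fell (50%, against 34.1%), the scytalone dehydratase genes PDE_04496 and PDE_09236. The first went from 45.4 ± 9.97 to 0.48 ± 0.052 FPKM, and the second was listed at 0 in all 3 rcoA libraries. FlbD leaned up there and BrlA down, neither called (log2 changes 0.66 and -0.85, limma adjusted p = 0.0611 and 0.136). Within ΔclrB the summed level was 725.2, 325.4 and 635.6 FPKM in replicates 1, 2 and 3. Replicate 2, the lowest, was also the lowest library for 66 of the 86 respiratory genes, against 48.7% of all genes tested. The part of spore-forming cells in the clrB result was not tested.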

How the data were processed

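The data are transcript levels of 9 libraries of Penicillium oxalicum mycelia, 3 per strain, grouped by the strain given in the labels. Per the labels' protocols, oligo(dT)-selected RNA was turned into short tags with NlaIII and MmeI. The authors deposited FPKM per gene and library, which divide by transcript length, although such tags come from a fixed site. For aligner, counting, gene lengths and build, none is given in the sources used here. Length cancels in a ratio for the same gene. No read totals were used, so depth is unknown. Against wild type replicate 1, the commonest ratio of low values was 1.00 in each of the other 8 libraries, over 116 to 199 genes, which gives no total depth. Another 3 columns of per-library values have no sample in the labels and were not analysed here. The reference table (9964 genes) matched 0 of the 9907 identifiers, so no coordinates or sequences are given.

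Members were the genes whose descriptions matched the words of the rule, sorted into classes by those descriptions. The members, lists and named genes were chosen with earlier results of these data known. Named genes were, per class, the 2 with the highest mean and the one with the largest change in each deletion, and, per comparison, the 3 largest rises and the falls. Other genes named were picked after their values were seen. Some members are counted but not reported here by name.

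Values were taken as log2(FPKM + 1), which understates changes of low genes, and limma (version 3.58.1, R version 4.3.3) fitted 1 mean per strain over all 9 libraries, with an intensity trend. The filter was a mean of at least 1 FPKM. Tests were two-sided, adjusted after Benjamini-Hochberg over all genes tested. The script was tested on simulated data. Folds are ratios of mean FPKM. The 18 alternatives were a pseudocount of 0.1, no filter, a filter of 10, 3 other scalings, no trend, a replicate block, leaving out each of the 9 libraries, and only the libraries compared.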

Additional observations from a re-analysis of the deposited data

Results flagged for a closer look

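PDE_09834, the second flavoprotein gene of complex II, and PDE_05796, described as COX16, stood out because they fell in ΔclrB and rose in ΔrcoA. Both were also lower in ΔclrB than in ΔrcoA, as were 47 of the 86 genes (54.7%, against 24.9% of all genes tested). That comparison uses the same libraries as the 2 with wild type and is not independent of them. The log2 difference of ΔclrB against ΔrcoA was -0.74 for PDE_09834 (limma adjusted p = 0.00017) and -0.83 for PDE_05796 (adjusted p = 2.32e-05). The clrB fall of PDE_09834 was lost under 6 of 18 alternatives and that of PDE_05796 under 0. In both genes all 3 clrB libraries lay below all wild type libraries and all 3 rcoA libraries above them.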

How the results depend on the processing

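The count of respiratory genes that rose in ΔrcoA, 54, ran from 47 to 59 over the 18 alternatives, and the 1 that fell was called in each. Of the 55 calls 47 were kept under every alternative (PDE_01607, PDE_02665, PDE_02724, PDE_02994, PDE_03716, PDE_03870, PDE_06362 and PDE_06476 each lost theirs under at least 1), and the median stood above that of all genes by 0.41 to 0.56 on the log2 scale. In ΔclrB 2 of 14 calls, PDE_07264 and PDE_05796, were kept under every alternative. Leaving out 1 library gave between 1 and 21 genes higher and between 1 and 3 lower against wild type. The count higher was 5, 2 and 6 without wild type replicates 1, 2 and 3, and 4, 21 and 1 without clrB replicates 1, 2 and 3. A fit of only the libraries compared gave 5 higher and 1 lower. Trimmed mean factors, equal medians and quantile normalization each gave 4 lower, with 8, 8 and 9 higher. These scalings also moved the share of higher calls among all calls from 61.9% to 46.4%, 49.0% and 49.2% in ΔclrB, and from 58.6% to 49.1%, 51.7% and 45.3% between the deletions; the causes were not tested. Between the deletions the median of all genes moved from 0.11 to -0.05 under quantile normalization, and the respiratory genes lay below it by 0.46 on the log2 scale as reported and by 0.37 there. Between the deletions the count higher was 0 under quantile normalization and between 1 and 2 with a library left out, and the count lower ran from 36 to 61. Correlations of deviations gave no clear pairing of the libraries by number. Those of same-numbered libraries ran from -0.16 to 0.34, and not every library correlated best with its own number. Among the respiratory genes, however, replicate 1 was the highest library for 64 in wild type and 72 in ΔclrB. Replicate 2 was the lowest for 58 in wild type and 66 in ΔclrB. In ΔrcoA replicate 3 was highest for 54 and replicate 1 lowest for 47. Whether the respiratory genes by themselves pair the libraries by number was not tested. With the replicate block 10 genes rose and 2 fell in ΔclrB, 54 and 1 in ΔrcoA, and 1 and 47 between them. No call of a respiratory gene turned to the other direction under the 18 alternatives. Changes near 0 that were not called did turn sign, such as PDE_01610 in ΔclrB, from 0.08 to -0.06 without wild type replicate 2, and the distance of the respiratory median from that of all genes in ΔclrB, from 0.02 to -0.04 there. Depth is unknown, so it cannot be said which small differences it would resolve.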
